A study of Rattus norvegicus with 16 samples.

Results

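Gene expression in the retina of newborn Sprague Dawley (SD) rats was compared with that of Fischer 344 (F344) rats, all raised under cyclic hyperoxia. The comparison took 8 of the 16 arrays of the study, picked by their titles as cyclic hyperoxia arrays, with 4 arrays per strain (2 of postnatal day 5 and 2 of day 6). It covered 15097 of the 27342 probe sets on the array, those that carry 1 gene symbol. Litters entered an oxygen chamber within 12 h of birth and were kept there in alternating phases of 24 h at 80% and 24 h at 21% oxygen, and the other 8 arrays hold age-matched rats of both strains kept in room air. Each array was hybridised with pooled retinal RNA, and the design text speaks of 3 rats from 2 litters without saying whether this describes 1 pool or both. The phase that preceded each day and the sex of the pups are not given in the sources used here. The strain difference is stated throughout as SD minus F344 on the log2 scale.

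In oxygen-induced retinopathy, swings in oxygen disturb the growth of blood vessels over a retina that is still immature at birth. SD rats, an outbred stock, are known as prone to the disease, and F344 rats, an inbred strain, as resistant. The strains also carry different haplotypes of RT1, the rat major histocompatibility complex (MHC), which holds class I and class II antigen-presenting molecules and the transporters that load class I molecules with peptides.

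The RNA carried retinal markers. The rod and photoreceptor transcription factors Nrl and Crx read 9.75 to 10.52 and 10.6 to 10.9 over the 8 hyperoxia arrays, and the amacrine factor Tfap2b read 9.62 to 10.4. The pigment epithelium enzyme Rpe65 and the muscle myosin Myh3 stayed below 5.45, the lowest median of any array, in 8 of 8 arrays, and the microglial marker Aif1 exceeded it in 1. The choroid plexus and pigment epithelium transcript Ttr (8.11 to 9.75) and the globin Hbb (6.32 to 8.02) were above that level in 8 arrays. Replicates of a group correlated with Pearson's r of 0.987 to 0.997 across genes. Replicate 2 of F344 hyperoxia day 6 stood apart, with the lowest r, the highest median (5.52) and 70 genes more than 2-fold from its partner, against 0 to 34 in the other groups, so counts are also given without it.

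The strains differed in a broad set of modest changes and a small set of large ones. At an adjusted p under 0.05 (limma on the 8 arrays with day as a block, Benjamini-Hochberg adjustment over 15097 probe sets), 1454 probe sets were called, which is 9.63% of those tested and comprises 1374 genes. In SD retina 821 probe sets (5.44%) were higher and 633 (4.19%) were lower. The median absolute size of a called difference was 0.44, 254 exceeded 1.5-fold, and 33 (0.219% of those tested) exceeded 2-fold, 18 higher and 15 lower. The 4 SD and the 4 F344 arrays did not overlap in 1094 of the called probe sets, where 12.8% of all probe sets tested had no overlap. Replicates are pools, so the p values reflect how far these pools differ, which may be partly technical.

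The count of called probe sets depended on single arrays, and the large differences did not. Without F344 hyperoxia day 6 replicate 2, the array that stood apart, 2738 probe sets were called, and they included 100% of the 1454, with 46.5% of them higher in SD against 56.5% with all arrays. Leaving out SD hyperoxia day 6 replicate 1 gave 510, F344 hyperoxia day 5 replicate 2 gave 584, SD hyperoxia day 5 replicate 1 gave 674, SD hyperoxia day 5 replicate 2 gave 741 and SD hyperoxia day 6 replicate 2 gave 889. In all 8 such fits, 437 probe sets were called (267 higher and 170 lower), among them all 33 that exceeded 2-fold. Of the 81 genes named by rule for the strain difference, from the lists or in any case, 74 were called, and 39 of these were called in all 8 fits.

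**Figure D1:**
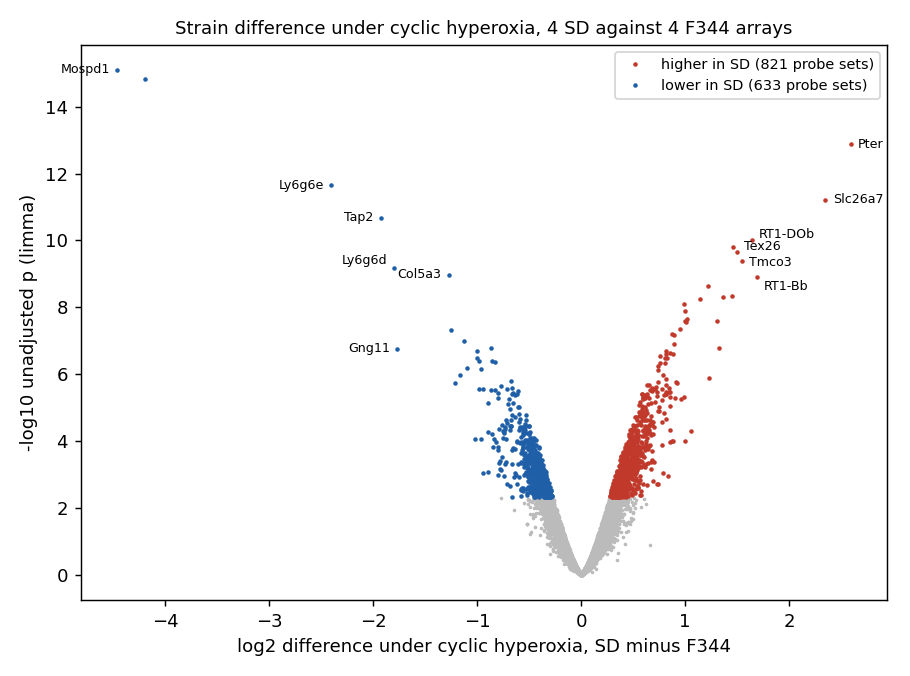
Strain difference (SD minus F344, log2, horizontal) against −log10 of the unadjusted limma p (vertical) for 15097 probe sets under cyclic hyperoxia, with called probe sets coloured by direction. Most of the 1454 called differences lie within 2-fold, and Mospd1 on the left and Pter and Slc26a7 on the right stand farthest out.

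The largest difference lay in Mospd1, which encodes a membrane protein of the endoplasmic reticulum. In F344 retina it read 8.85 and 8.89 on day 5 and 8.63 and 8.24 on day 6, against 4.27 and 4.20, then 4.16 and 4.13, in SD retina. All SD arrays thus lay below the median of a whole array, and all F344 arrays far above it. The difference was −4.46 ± 0.11 (SE, n = 4 arrays per strain, limma adjusted p = 1.16e-11), at least 22.0-fold lower in SD. Here and below "at least" marks a group mean under 5.45, in which background can hide part of the fold. It refers to probe signal, since the match of the probes to each strain's sequence cannot be told apart from the RNA level. A second probe set of Mospd1 gave −4.20 (adjusted p = 1.16e-11). Whether it reads the transcript independently of the first was not tested. In room air the first probe set differed by −4.69.

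Genes higher in SD were led by Pter, an enzyme that hydrolyses N-acetyltaurine, and Slc26a7, an anion exchanger. Pter read 7.38, 7.29, 7.28 and 7.13 in SD (day 5, then day 6, as in all such lists) and 4.80, 4.62, 4.54 and 4.75 in F344. The groups were well apart, and the difference was 2.59 ± 0.09 (at least 6.03-fold, adjusted p = 6.61e-10, limma). Slc26a7 read 7.26, 7.37, 6.94 and 6.89 in SD against 4.63, 4.77, 4.85 and 4.80 in F344, at least 5.10-fold higher (2.35 ± 0.11, adjusted p = 1.86e-08). In both genes the SD arrays were above 5.45 and the F344 arrays below it. The tetraspanin Cd9, a bright gene in both strains, read 9.58, 9.45, 9.76 and 9.65 in SD and 7.98, 8.15, 8.18 and 8.31 in F344, which is 2.75-fold (1.46 ± 0.09, adjusted p = 2.99e-07). Tmco3, a membrane protein related to ion exchangers, read 9.28, 9.36, 9.49 and 9.49 in SD against 7.92, 7.79, 8.06 and 7.67, a 2.92-fold difference (adjusted p = 6.11e-07). For Cd9 and Tmco3 both groups lay far above background, so these folds are measured on both sides.

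Among genes without overlap between the strains, the rest of the 12 largest differences upward, after the RT1 genes described below, were between 1.22 and 1.501. Tex26 was higher by 1.501 (adjusted p = 3.74e-07) and Pax4, a paired-box transcription factor, by 1.45 (adjusted p = 4.68e-06), with F344 below 5.45 in both. Pax4 read 5.66, 5.72, 6.18 and 5.62 in SD and 4.32, 4.34, 4.32 and 4.39 in F344. The F344 arrays were thus close together and the SD arrays all above them. Etfbkmt, a mitochondrial methyltransferase, was higher by 1.37 and the lysosomal sulfatase Arsb by 1.33. Prim1, the small subunit of DNA primase, read 9.53, 9.71, 9.14 and 9.12 in SD against 8.31, 8.66, 7.83 and 7.48 in F344 (1.31 ± 0.12, 2.47-fold, adjusted p = 1.79e-05). Both strains read lower on day 6 than on day 5, with the strains apart on each day. The relaxin receptor Rxfp1 was higher by 1.22 (2.33-fold, adjusted p = 2.40e-06). Pygl, liver glycogen phosphorylase, differed as much (1.23 ± 0.15, 2.35-fold, adjusted p = 0.000363). Its arrays overlapped, so it was not counted among the 12. It read 6.49, 6.48, 7.87 and 7.95 in SD and 5.68, 5.65, 6.50 and 6.02 in F344, and both strains were higher on day 6.

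**Figure D2:**
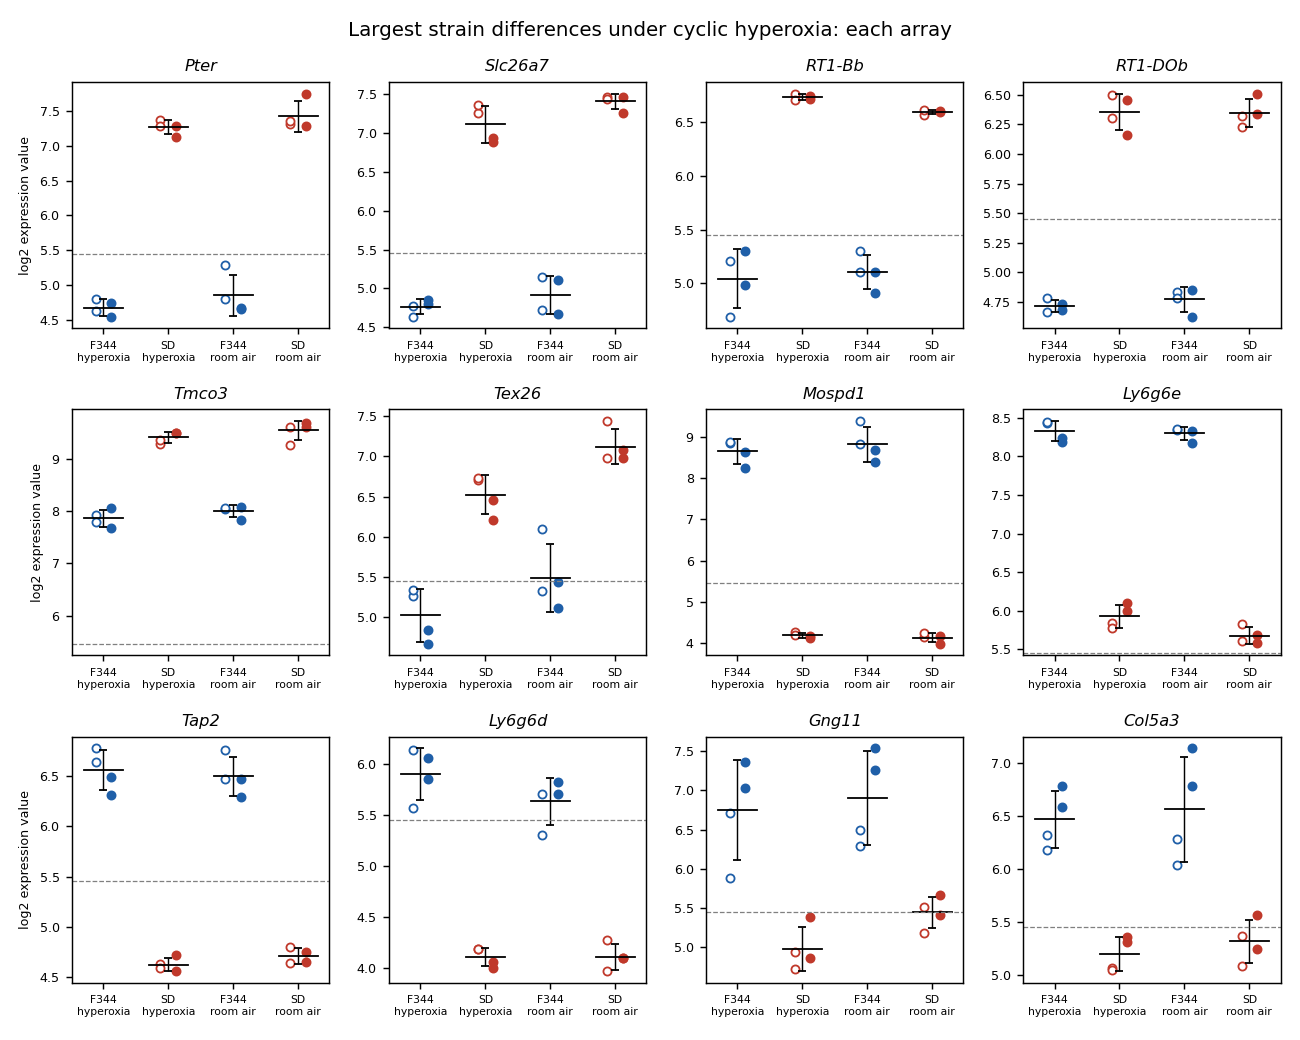
Deposited log2 expression of 12 genes, the 6 largest differences in each direction, in F344 (blue) and SD (red) arrays under hyperoxia and in room air (open symbols day 5, filled symbols day 6, line and bar mean ± SD, n = 4), with the dashed line at 5.45, the lowest array median. The genes were picked among those whose strains do not overlap under hyperoxia. In room air the strains do not overlap in any panel either, and Mospd1 in SD and Pter in F344 lie under the dashed line.

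Among the genes lower in SD outside the MHC, Gng11, a G protein gamma subunit, read 4.72, 4.94, 5.38 and 4.87 in SD and 6.71, 5.88, 7.37 and 7.03 in F344 (−1.77 ± 0.18, at least 3.41-fold, adjusted p = 8.26e-05). F344 replicate 2 of day 5 came nearest to SD and still lay above it. The matrix gene Col5a3 came next in size outside the MHC, and another, Loxl1, was the smallest of the 12 largest downward. Col5a3, a collagen V chain, read 5.07, 5.04, 5.36 and 5.31 in SD against 6.32, 6.18, 6.78 and 6.58 in F344 (−1.27 ± 0.09, at least 2.41-fold, adjusted p = 1.34e-06). Loxl1, an enzyme that crosslinks elastin, read 6.29, 6.11, 6.402 and 6.89 against 7.32, 7.22, 7.51 and 7.65 (−1.001 ± 0.11, adjusted p = 0.000124). Neither gene overlapped between the strains, which the rule for picking these genes required. Fth1, the ferritin heavy chain, which stores iron, was lower by −1.25 (adjusted p = 2.78e-05), and its other probe set gave −1.10. It has near-identical copies in the genome, so its value is uncertain. Lix1 (−1.21), Rap1gap, which switches off the small GTPase Rap1 (−1.13), and Mob1a, an adaptor of the Hippo pathway (−1.02, adjusted p = 0.00484), complete the 12 largest downward together with Mospd1 and 4 genes of the MHC region.

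The MHC region on chromosome 20 held large differences in opposite directions among neighbouring genes. RT1-Bb, the beta chain of a classical class II molecule, read 6.77, 6.70, 6.75 and 6.72 in SD and 5.21, 4.68, 4.98 and 5.30 in F344. The SD arrays were tight and all above the F344 arrays, which lay below 5.45 (1.69 ± 0.12, at least 3.23-fold higher in SD, adjusted p = 1.44e-06). RT1-DOb, the beta chain of the DO molecule that restrains class II peptide loading, read 6.31, 6.50, 6.46 and 6.16 against 4.78, 4.66, 4.68 and 4.73 (1.64 ± 0.09, at least 3.12-fold, adjusted p = 2.09e-07). RT1-Ba, the alpha chain that pairs with RT1-Bb, differed by 0.37 (adjusted p = 0.0268), with both strains below 5.45. Tap2, a subunit of the peptide transporter for class I molecules, went the other way, at 4.63, 4.59, 4.72 and 4.57 in SD and 6.63, 6.78, 6.31 and 6.49 in F344. It was at least 3.80-fold lower in SD (−1.93 ± 0.10, adjusted p = 5.21e-08). Its partner Tap1 differed by −0.58 (adjusted p = 0.00456), also dim in both strains.

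The starts of RT1-Bb, RT1-DOb, Tap2 and Mospd1 are shown to mark where these transcripts begin. They come from the RefSeq promoter table of the GRCr8 assembly, a reference that is neither an SD nor an F344 genome, and all run on the minus strand, printed from 250 bases before to 50 bases after the gene start. Capitals mark matches, on either strand, to the letters CCAAT of the box of that name, to TATAAA, which marks where some genes position transcription, or to GAAA followed after any 2 bases by GAAA (the core of an interferon response element). These letters occur in 37.5%, 14.2% and 3.92% of all 33469 promoters of this length, and none of the 3 motifs overlaps another in the printed windows.
RT1-Bb, chr20:4604069-4604368: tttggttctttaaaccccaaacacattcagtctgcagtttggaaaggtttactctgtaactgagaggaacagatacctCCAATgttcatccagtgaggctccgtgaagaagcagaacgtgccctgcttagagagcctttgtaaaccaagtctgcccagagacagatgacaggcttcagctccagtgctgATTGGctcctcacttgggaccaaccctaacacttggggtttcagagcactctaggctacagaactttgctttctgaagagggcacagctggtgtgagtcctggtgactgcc
RT1-DOb, chr20:4627474-4627773: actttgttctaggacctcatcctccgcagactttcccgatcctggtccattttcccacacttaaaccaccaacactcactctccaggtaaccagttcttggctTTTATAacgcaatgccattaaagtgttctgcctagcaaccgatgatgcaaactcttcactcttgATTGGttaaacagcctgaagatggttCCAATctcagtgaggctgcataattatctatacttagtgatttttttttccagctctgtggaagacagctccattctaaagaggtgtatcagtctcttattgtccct
Tap2, chr20:4652247-4652546: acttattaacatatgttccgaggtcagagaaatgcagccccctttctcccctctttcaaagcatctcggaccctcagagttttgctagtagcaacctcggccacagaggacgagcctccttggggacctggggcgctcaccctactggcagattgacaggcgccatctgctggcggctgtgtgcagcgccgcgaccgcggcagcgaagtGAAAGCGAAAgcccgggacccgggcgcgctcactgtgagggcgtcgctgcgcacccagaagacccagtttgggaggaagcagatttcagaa
Mospd1, chrX:138047324-138047623: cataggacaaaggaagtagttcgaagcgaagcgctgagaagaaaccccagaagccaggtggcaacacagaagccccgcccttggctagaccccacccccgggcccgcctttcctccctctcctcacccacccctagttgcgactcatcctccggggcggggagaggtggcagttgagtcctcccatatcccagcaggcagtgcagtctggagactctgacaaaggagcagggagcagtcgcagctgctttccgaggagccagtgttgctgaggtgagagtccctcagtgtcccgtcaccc
Both class II genes hold CCAAT letters on both strands, Tap2 holds the GAAA repeat 41 bases before its start, and the Mospd1 window holds no match. A match describes letters in the reference, not a bound site.

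The class III side of the same region held the Ly6g6 genes, which encode small surface proteins anchored to the membrane by lipid. Ly6g6e read 5.84, 5.77, 6.10 and 6.00 in SD and 8.44, 8.45, 8.19 and 8.24 in F344, 5.29-fold lower in SD (−2.40 ± 0.10, adjusted p = 8.33e-09). Ly6g6d read 4.18, 4.19, 4.06 and 4.0001 against 5.57, 6.14, 5.86 and 6.06 (−1.80 ± 0.12, at least 3.48-fold, adjusted p = 9.09e-07). Ly6g6c was lower by −1.17 ± 0.14 (adjusted p = 0.000308). In each of these 3 genes every F344 array lay above every SD array, which the rule for picking them required. Between Prrc2a and Rxrb in the RefSeq gene order, 19 of 63 measured genes were called, 5 higher and 14 lower. In room air 14 of the 63 were called, where 3.76% of all genes were. Both end genes were themselves called under hyperoxia, so the window was not set apart from the values it counts. Chromosome 20 as a whole had 60 of 437 genes called (13.7%, the highest share of any chromosome, where 9.4% of all genes were called), 6 of them more than 2-fold.

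Of the list of 40 measured MHC and antigen-presentation genes, 6 were called higher and 5 lower (27.5%, where 9.4% of all 14324 genes were called, 5.46% higher and 3.94% lower), with a median difference of −0.01 beside 0.01 for all genes. In room air 3.76% of all genes were called, 1.75% higher and 2% lower. The higher ones were RT1-Bb, RT1-DOb, RT1-S3 (0.44), the peptide-trimming enzyme Erap1 (0.44), RT1-Ba (0.37) and the proteasome activator Psme2 (0.30). The lower ones were Tap2, Tap1, RT1-T24-4 (−0.39), RT1-CE4 (−0.34) and RT1-CE16 (−0.32). Another probe set of RT1-T24-4 had the opposite sign (0.12) and was not called. RT1-S3 and RT1-CE16, like RT1-Ba and Tap1, had means below 5.45 in both strains, and RT1-T24-4 and RT1-CE4 in SD. RT1 genes belong to a family of near-identical copies, so a probe set can read more than 1 copy. A probe set gives 1 value per array, so the RNA level of a gene and the match of its probes to each strain's sequence cannot be told apart, here or for Mospd1 and the other genes.

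**Figure D3:**
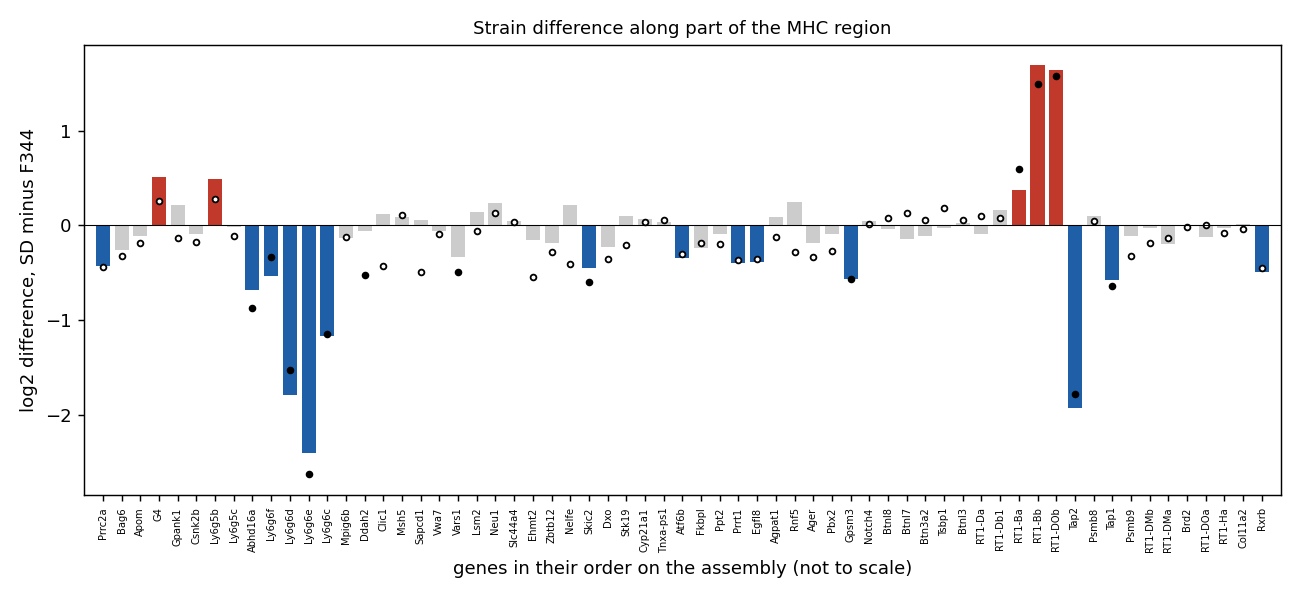
Strain difference (SD minus F344, log2) of MHC-region genes in their order along chromosome 20 under hyperoxia (bars, coloured where called) and in room air (dots, filled where called). Of the 63 genes 19 were called under hyperoxia, in a window whose end genes were both called. RT1-Bb and RT1-DOb point up while Tap2, Ly6g6e and Ly6g6d point down.

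The strain difference under hyperoxia mostly had the same sign in room air arrays, which are separate pools. The same fit on the 8 room air arrays called 598 probe sets (3.96%), 267 higher (1.77%) and 331 lower (2.19%) in SD. The fit with 1 mean per group over 16 arrays called 1486 in room air and 1377 under hyperoxia, so the order of the counts turned with the fit, and the shares that follow rest on the 598. In both conditions 318 were called, which is 21.9% of the hyperoxia calls and 53.2% of the room air calls, and 318 of 318 had the same direction. Of the 1454 probe sets called under hyperoxia, 94.4% had the same sign in room air, against 67.1% of all probe sets. Across the 15097 probe sets, which are not independent, Pearson's r of the 2 strain differences was 0.69 and Spearman's rho 0.56. Of the called probe sets, 439 also had room air arrays that did not overlap between strains in the same direction, where 10.5% of all probe sets had no overlap in room air. Of the 33 differences over 2-fold, 32 were also called in room air. Sizes there were alike for the largest (Pter 2.57, Slc26a7 2.50, RT1-Bb 1.49, Tap2 −1.78, Ly6g6e −2.63, Cd9 1.40). Others were smaller in room air than under hyperoxia (Bdh1 0.56 against 1.00, Fkbp9 0.66 against 1.01, Pygl 0.97 against 1.23) or larger (Loxl1 −1.21 against −1.001). The 1 not called in room air was Mob1a (−0.82, adjusted p = 0.0738 in limma). The room air count ranged from 125, when replicate 2 of F344 room air day 6 was left out, to 1354, when replicate 1 of F344 room air day 5 was. Dropping replicate 2 of F344 room air day 5 gave 241 and dropping replicate 1 of F344 room air day 6 gave 126. On the SD side, dropping replicate 1 or 2 of room air day 6 gave 384 or 132.

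**Figure D4:**
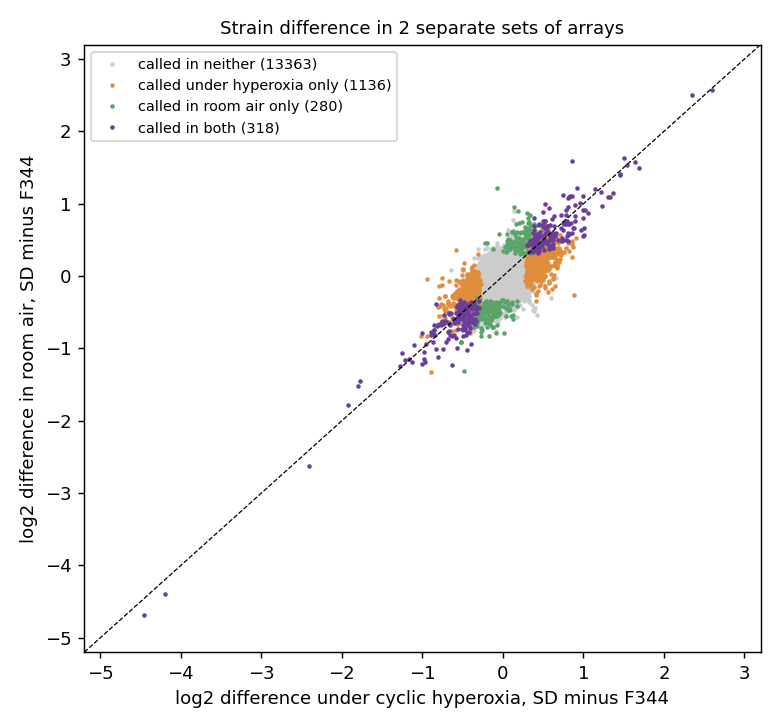
Strain difference (SD minus F344, log2) under cyclic hyperoxia (horizontal) against that in room air (vertical) for 15097 probe sets, coloured by where they were called. The 318 probe sets called in both conditions lie along the diagonal with the same sign, and the largest differences, such as Mospd1 at −4.46 and −4.69, lie near the line of equal values.

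Whether oxygen changed the strain difference was tested as an interaction over all 16 arrays. At an adjusted p under 0.05 limma called 0 of 15097 probe sets, the smallest adjusted p was 0.206, and an unadjusted p under 0.05 was reached by 1212. Calls numbered 1 without F344 room air day 5 replicate 1 (Hbb-b1), 5 without F344 hyperoxia day 6 replicate 1 (Uros, Psat1, Car4, Bid and Dcaf4) and 8 without F344 hyperoxia day 6 replicate 2, among them Rnd2, Chrm2 and Gucy2f. The genes with the smallest p in each direction were, upward, the GTPase Rnd2 (the SD minus F344 value was 0.71 higher under hyperoxia, at 0.12, than in room air, at −0.59), the DNA repair enzyme Ogg1 (0.69), Maea (0.64) and the beta globin Hbb-b1 (1.14), and, downward, the muscarinic receptor Chrm2 (−0.61), Zfp365 (−0.65), the carbonic anhydrase Car4 (−0.64) and the photoreceptor guanylate cyclase Gucy2d (−0.69). Their adjusted p lay between 0.206 and 0.246, so none passed. Rnd2 read 7.88, 7.67, 7.62 and 7.4996 in SD room air, 8.34, 8.16, 8.17 and 8.15 in SD hyperoxia, and 8.10, 8.22, 8.36 and 8.34 in F344 room air. F344 hyperoxia arrays (8.30, 8.32, 7.78 and 7.94) overlapped those of SD hyperoxia.

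The strain difference was also examined by day. Taken alone, day 5 gave 207 calls (1.37%, 105 higher, 0.696%, and 102 lower, 0.676%) and day 6 gave 276 (1.83%, 200 higher, 1.32%, and 76 lower, 0.503%), and 105 were called on both days, all in the same direction. The test of the difference between days called 0 of 15097 (smallest adjusted p 0.9996 in limma, 524 at an unadjusted p under 0.05). It called 3, Asb8, Gnat1 and Ddx3x, without F344 hyperoxia day 6 replicate 1. The day 6 split toward higher in SD rests on 2 arrays per strain, 1 of which is the F344 array that stood apart. The day 6 count was 129 without that array, 1344 without F344 hyperoxia day 6 replicate 1, 40 without SD hyperoxia day 6 replicate 1 and 69 without SD hyperoxia day 6 replicate 2. The day 5 count was 44 without F344 hyperoxia day 5 replicate 2, 40 without SD hyperoxia day 5 replicate 1 and 43 without SD hyperoxia day 5 replicate 2. The smallest p upward, toward a more positive SD minus F344 value on day 6, belonged to Ube2v2, Rhob, Pygl and Aph1b, and downward, toward a more negative one, to Dppa3, Tuba3a, Tas2r114 and Slamf1.

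Oxygen-regulated genes are targets of the hypoxia-inducible factors, which are stabilised when oxygen falls. Of 32 measured hypoxia-responsive genes outside glycolysis, 4 were called higher and 1 lower in SD (15.6%, beside 9.4% of all genes, median 0.03), and in room air 0 were called (3.76% of all genes). The peptide hormone Adm, a vasodilator, read 4.71, 4.85, 5.63 and 5.83 in SD against 4.23, 4.47, 4.95 and 4.84 in F344 (0.63 ± 0.11, adjusted p = 0.00341). Each strain was higher on day 6, SD lay above F344 within each day, and both means were below 5.45. Egln3, a prolyl hydroxylase that marks the factors for degradation, read 4.87, 5.09, 6.86 and 7.12 against 4.75, 4.74, 6.29 and 6.20 (0.49 ± 0.11, adjusted p = 0.0171). Its step between days, in both strains, was larger than its strain difference. The mitophagy gene Bnip3 differed by 0.37 (adjusted p = 0.0211) and the collagen hydroxylase P4ha2 by 0.39 (adjusted p = 0.041). Ddit4, an inhibitor of mTOR signalling, was lower by −0.50 (adjusted p = 0.0344). In room air these genes, though not called, differed by 0.26 (Adm), 0.11 (Egln3), 0.32 (Bnip3), −0.04 (P4ha2) and −0.52 (Ddit4). Ddit4 and Bnip3 thus differed in room air by nearly as much as under hyperoxia or more. The strain by oxygen test with all arrays called none of these genes. Without F344 hyperoxia day 6 replicate 2 the list had 5 higher and 3 lower, where 17.9% of all genes were then called. In the fits with 1 array left out, Adm was called in 8 of 8. Egln3 was not called without SD hyperoxia day 5 replicate 2 (adjusted p = 0.0534) or without either SD day 6 array (adjusted p = 0.0723 and 0.0655), and Bnip3 lost its call in 4 fits (adjusted p up to 0.0885).

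Of 20 glycolytic enzymes, 3 were called higher and 0 lower (15%, beside 9.4% of all genes, median 0.06). The 9.4%, here and for the other lists, counts dim genes too. When probe sets with a mean under 5.45 were left out, 1404 of 8826 were called, a larger share. Whether lists of bright genes exceed that share was not tested. Pgk1, phosphoglycerate kinase, read 10.82, 10.49, 11.33 and 11.29 in SD against 10.14, 9.95, 10.88 and 10.59 (0.59 ± 0.10, 1.51-fold, adjusted p = 0.00362), and SD was above F344 within each day. Aldoc, the brain form of aldolase, was higher by 0.51 (adjusted p = 0.0113) and Pfkm, a phosphofructokinase subunit, by 0.35 (adjusted p = 0.0381). Pgk1 was called in all 8 fits with 1 array left out, Aldoc lost its call without SD hyperoxia day 6 replicate 1 (adjusted p = 0.0674), and Pfkm lost it in 5 fits (adjusted p up to 0.146). Leaving out replicate 2 of F344 hyperoxia day 6 gave 3 enzymes higher and 3 lower (30%, beside 17.9% of all genes). The glucose transporter Slc2a1 differed by −0.22 (adjusted p = 0.194), and by −0.30 without that array (adjusted p = 0.0279).

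Among vascular genes few were called. Vegfa, the growth factor that drives retinal vessel sprouting, read 7.92, 8.21, 9.19 and 9.29 in SD and 8.20, 8.27, 9.33 and 9.37 in F344. Both strains read higher on day 6 than on day 5, and the strain difference of −0.14 ± 0.09 did not pass (adjusted p = 0.383). Epo (0.05), Igf1 (0.15), Angpt2 (−0.09) and Edn2 (0.03) did not pass either. Of 39 angiogenic ligands and receptors, 1 was higher and 2 lower (7.69%, below the 9.4% of all genes). The Norrin ligand Ndp, which acts through frizzled receptors in retinal vessels, read 7.78, 7.76, 7.90 and 7.72 in SD against 7.23, 7.37, 7.41 and 7.28 (0.47 ± 0.09, adjusted p = 0.00533) with no overlap. The VEGF co-receptor Nrp1 (−0.44, adjusted p = 0.0233) and the IGF receptor Igf1r (−0.41, adjusted p = 0.0179) were lower. Of 26 endothelial genes 0 were higher and 1 lower, the tight-junction protein Cldn5 (−0.57, adjusted p = 0.0329), whose SD mean was below 5.45. The mean level of the endothelial list lay between 4.76 and 4.91 in SD and between 4.72 and 5.10 in F344 hyperoxia arrays. The list was thus dim in every hyperoxia array, and whether background kept members from being called was not tested. Of 16 pericyte and smooth muscle genes 1 was higher, Mcam (0.49), and of 13 tip cell genes only Adm. The pericyte and smooth muscle list was dim too, at a mean level of 4.91 to 5.08 in SD and 4.85 to 5.06 in F344 hyperoxia arrays. With 1 array left out, Ndp kept its call in 8 of 8 fits, Mcam lost it without F344 hyperoxia day 5 replicate 2 (adjusted p = 0.0508), and Igf1r, Nrp1 and Cldn5 lost it in 3, 4 and 5 fits (adjusted p up to 0.0803, 0.108 and 0.133). The Cldn5 difference was −0.35 without F344 hyperoxia day 6 replicate 1. In pooled tissue, fewer cells of a type and less RNA per cell cannot be told apart.

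Photoreceptor genes had more calls, mostly upward. Of 23 rod genes, 5 were higher and 1 lower (26.1%, beside 9.4% of all genes, median 0.10), and in room air 9 were higher and 0 lower (median 0.37), where 1.75% of all genes were higher. Gnat1, rod transducin, read 6.26, 6.16, 7.58 and 7.64 in SD against 5.92, 5.79, 6.80 and 5.80 in F344 (0.84 ± 0.20, 1.78-fold, adjusted p = 0.0205). The strains lay close together on day 5 and farther apart on day 6, where F344 replicate 2 read as low as on day 5. Gnat1 was not called without F344 hyperoxia day 5 replicate 2 (adjusted p = 0.0504) or without either SD day 6 array (adjusted p = 0.107 and 0.0859). The guanylate cyclase activator Guca1b (0.74), recoverin Rcvrn (0.56), the phosphodiesterase Pde6b (0.52) and arrestin Sag (0.45) were also higher. The guanylate cyclase Gucy2f was lower (−0.58, adjusted p = 0.0474). When replicate 2 of F344 hyperoxia day 6 was left out, 6 rod genes were higher and 1 lower (30.4%, beside 17.9% of all genes), with a median of 0.02, and Gnat1 differed by 0.54. Recoverin was not called without SD hyperoxia day 6 replicate 1 (adjusted p = 0.0506), and Sag was not called without that array (adjusted p = 0.069) or without F344 hyperoxia day 5 replicate 2 (adjusted p = 0.0622). Of 14 cone genes 3 were higher and 0 lower. The short-wave opsin Opn1sw read 9.31, 9.25, 10.04 and 9.86 in SD and 8.94, 8.83, 9.50 and 9.26 in F344 (0.49 ± 0.09, adjusted p = 0.0062), with SD above F344 within each day. The cone phosphodiesterase Pde6c (0.45) and the receptor Rxrg (0.33) were the others. Opn1sw was called in all 8 fits with 1 array left out, Pde6c in all but the one without SD hyperoxia day 6 replicate 1 (adjusted p = 0.05003) and Rxrg in 3.

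Inner retinal lists had calls in both directions, at 1 to 2 genes a list beside 9.4% of all genes. Grm6, the glutamate receptor of ON bipolar cells, read 6.26, 6.28, 6.95 and 6.94 in SD against 7.51, 7.28, 7.70 and 7.43 in F344. No SD array reached the lowest F344 array (−0.87 ± 0.11, 1.83-fold lower, adjusted p = 0.000588), and it was the 1 called gene of 13 bipolar genes. Among 18 amacrine and horizontal cell genes, 2 were lower, the transcription factor Prox1 (−0.35) and the acetylcholine transporter Slc18a3 (−0.32). Slc18a3 was dim in both strains, with means below 5.45. Among 19 ganglion cell genes the RNA-binding proteins Elavl2 (0.45) and Rbpms (−0.34) were called. Of 17 Muller glia genes 2 were higher, the surface protein Pdpn (0.54, adjusted p = 0.00346) and the retinoid carrier Rlbp1 (0.45, adjusted p = 0.0267). Of 14 astrocyte genes 1 was higher, Fabp7 (0.44). The intermediate filament Gfap did not pass (0.16, adjusted p = 0.454), and of 17 glial stress genes 1 was higher, Lcn2 (0.47). With 1 array left out, Grm6, Pdpn and Lcn2 kept their calls in 8 of 8 fits. Prox1, Slc18a3, Elavl2 and Rlbp1 lost theirs in 5 fits, and Rbpms and Fabp7 in 6 (adjusted p up to 0.178). Without F344 hyperoxia day 6 replicate 2, ganglion cell genes had 2 higher and 4 lower, Muller glia genes 3 higher and 2 lower, and bipolar genes 1 higher and 2 lower, where 17.9% of all genes were called.

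Cell cycle genes were called in 1 direction. Of 31 measured, 0 were higher and 5 lower in SD (16.1%, beside 9.4% of all genes and 3.94% called lower, median −0.11), and in room air 0 were higher and 7 lower (median −0.38), where 2% of all genes were lower. Cdk1, the mitotic kinase, read 7.05, 7.24, 6.07 and 6.25 in SD against 7.38, 8.15, 6.56 and 7.07 in F344 (−0.64 ± 0.15, 1.56-fold lower, adjusted p = 0.0183). Both strains read lower on day 6, and SD lay below F344 within each day. The replication clamp Pcna (−0.43) and the cyclins and regulator Ccne1 (−0.40), Cdc20 (−0.39) and Ccna2 (−0.39) were the others. Of 17 progenitor genes 2 were higher (Six6 and Neurod4, both transcription factors) and 2 lower (the receptor Notch1, −0.48, and its ligand Dll3, −0.47). Cdk1 was not called without F344 hyperoxia day 5 replicate 2 (adjusted p = 0.0761), SD hyperoxia day 5 replicate 1 (adjusted p = 0.0683) or SD hyperoxia day 6 replicate 1 (adjusted p = 0.0897), and Ccne1 was not called without the first of these (adjusted p = 0.0527). Cdc20 and both progenitor factors lost their calls in 5 fits, and Notch1 in 3. Without F344 hyperoxia day 6 replicate 2, 0 cell cycle genes were higher and 7 lower (22.6%, beside 17.9% of all genes), and the fit on 16 group means called 3 instead of 5.

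Lists of blood and immune cells and of neighbouring tissue gave single genes, where 9.4% of all genes were called. The shares called were 5.56% of erythroid, 8.7% of microglia and macrophage and 6.9% of interferon response genes. Of pigment epithelium, choroid and ciliary body genes the share was 10%. Of 18 erythroid genes only Hbb-b1 was called (0.88 ± 0.16, adjusted p = 0.00532). It read 6.61, 6.23, 6.95 and 7.05 in SD and 4.96, 5.21, 6.68 and 6.47 in F344, so the low arrays were those of F344 on day 5. It belongs to a family of near-identical globin genes. Of 23 microglia and macrophage genes 2 were higher, the purinergic receptor P2ry12 and the tetraspanin Cd53 (0.43). P2ry12 read 6.16, 6.12, 6.51 and 6.36 in SD against 5.604, 5.56, 5.95 and 5.38 (0.67 ± 0.12, adjusted p = 0.00381), without overlap. Of 20 pigment epithelium, choroid and ciliary body genes the pigment enzyme Tyrp1 was higher and Ttr lower (−0.63, adjusted p = 0.0194). Tyrp1 read 6.84, 6.47, 7.20 and 7.23 in SD and 5.93, 6.01, 6.16 and 5.99 in F344 (0.91 ± 0.11, 1.88-fold, adjusted p = 0.000463). The mean level of the whole list lay between 5.30 and 5.61 in SD hyperoxia arrays and between 5.26 and 5.503 in F344 hyperoxia arrays, and its part in other results was not tested. Of 12 lens and 16 skeletal muscle genes 0 were called, and in each list 1 member had an unadjusted p under 0.05. The mean level of both lists lay below 5.45 in every hyperoxia array. Of 29 interferon response genes 2 were higher, Mx2 (0.58) and Ifi35 (0.33), both dim in both strains. Hbb-b1, P2ry12, Tyrp1 and Mx2 kept their calls in all 8 fits with 1 array left out, Ttr lost its call in 3 (adjusted p up to 0.083), and Cd53 and Ifi35 in 5. Leaving out the F344 array that stood apart, 4 erythroid genes were higher and 0 lower (22.2%, beside 17.9% of all genes).

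Matrix and stress genes included several of the firmer single differences. Fn1, fibronectin, read 6.61, 6.58, 6.77 and 6.997 in SD against 7.36, 7.44, 7.90 and 7.73 in F344 (−0.87 ± 0.09, 1.83-fold lower, adjusted p = 8.01e-05). Sparc, a collagen-binding glycoprotein, went the other way, at 9.39, 9.24, 9.66 and 9.67 against 8.80, 8.27, 8.86 and 9.06 (0.74 ± 0.11, adjusted p = 0.00149). Neither overlapped between strains, and with the proteoglycan Lum (0.33) they were the 3 called of 20 basement membrane and matrix genes (15%). Of all genes 9.4% were called, which is the share to set beside each list here. Of 27 ATF4 and endoplasmic reticulum stress genes 2 were higher (7.41%), the collagen-folding isomerase Fkbp14 (0.74 ± 0.09, adjusted p = 0.000448) and the transcription factor Ddit3 (0.39, adjusted p = 0.019). In room air Fkbp14 differed by 0.33 (adjusted p = 0.252). Of 36 antioxidant genes 1 was higher, the peroxidase Gpx3 (0.38), and 2 lower, Fth1 and the peroxiredoxin Prdx4 (−0.48), which is 8.33% in both directions together. Gpx3 was dim in both strains, with means below 5.45. Of 17 cholesterol synthesis genes Nsdhl (0.70) and Msmo1 (0.44) were higher and Lss (−0.38) lower, 17.6% in all. Of 14 p53 targets only Zmat3 was called (−0.30), which is 7.14%. With 1 array left out, Fn1, Sparc, Fkbp14 and Msmo1 kept their calls in 8 of 8 fits. Nsdhl lost its call without SD hyperoxia day 6 replicate 1 (adjusted p = 0.0731), Ddit3 in 3 fits, Lum, Gpx3 and Prdx4 in 4, Lss in 5 and Zmat3 in 7. Of 20 immediate early genes and 14 circadian clock genes 0 were called, with 3 and 2 at an unadjusted p under 0.05. The mean level of the immediate early list lay below 5.45 in every hyperoxia array.

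**Figure D5:**
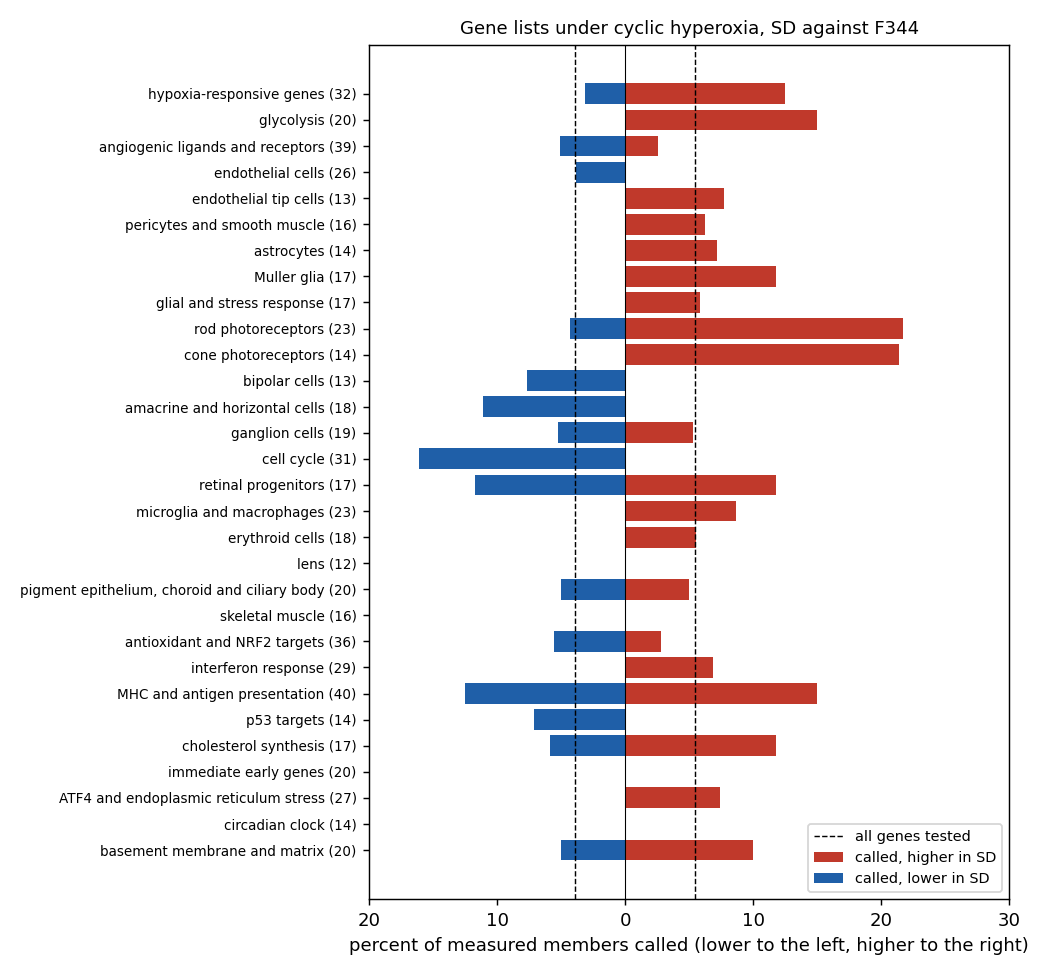
Percent of the measured members of each gene list called higher or lower in SD than in F344 under cyclic hyperoxia, lower drawn to the left and higher to the right, with dashed lines at the shares of all 14324 genes, dim ones included (3.94% lower and 5.46% higher). In this fit without a replicate block the MHC list (27.5% in both directions together) and the rod list (26.1%) have the highest shares, and cell cycle calls (5 of 31) are all lower in SD.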

How the data were processed

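The deposited table holds log2 expression values, which per the submitters' processing notes were made with Partek 6.4 and RMA (background correction, quantile normalization, probe summary), so a shift shared by most transcripts would not show. Of 27342 probe sets, 15097 had 1 gene symbol in the platform annotation, 323 had several and 11922 were not listed. Symbols were updated to RefSeq (GRCr8) by Entrez identifier for 15067, and 30 kept the annotated symbol. Each probe set was tested with limma 3.58.1 in R 4.3.3 on the 8 hyperoxia arrays with strain and day as terms (5 residual and 8.64 prior degrees of freedom), and likewise in room air. Interactions and single days came from 1 mean per group over 16 arrays. The scripts were tested on simulated data. For lists, the probe set with the highest mean stood for a gene (14324 genes). By rule, the text names the 12 largest called differences each way without overlap between strains, the 3 called members of each list with the smallest p, the 4 interaction genes with the smallest p each way, and Vegfa, Epo, Igf1, Adm, Angpt2, Slc2a1, Gfap, Edn2 and Rlbp1. Other genes are examples named after their values were seen. Members and lists were chosen with earlier results of these data known. The number of arrays limits the precision.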

Additional observations from a re-analysis of the deposited data

How the results depend on the processing

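The count of 1454 probe sets called under hyperoxia was 1377 with 1 mean per group over 16 arrays, 1327 with arrays centred on their medians (59.8% higher in SD), 1682 after another quantile normalization, 1404 of 8826 without dim probe sets, 1336 with an intensity trend and robust prior, 1359 with 1 probe set per gene and 1782 over all 27342 probe sets. It was 2693 with array weights, where replicate 2 of F344 hyperoxia day 6 had a weight of 0.22 and 49.4% of calls were higher in SD. Within the fit on 16 arrays it was 207 for day 5 and 276 for day 6. The 2 single days compare fewer arrays, and for the weights the cause was not tested. With 1 array left out the count of 1454 ranged from 510 to 2738. The room air count of 598 was 1486 in the fit on 16 arrays and 549 with centred arrays, and 125 to 1354 with 1 array left out. The strain by oxygen test gave 0 with centred arrays and without dim probe sets, and 0 to 8 with 1 array left out, and the strain by day test 0 and 0 to 3. With 1 array left out, day 5 gave 40 to 150 calls and day 6 gave 40 to 1344. With the replicate number as a block the counts were 1383 under hyperoxia, 367 in room air, 0 for both interactions, 225 on day 5 and 309 on day 6, and 4 MHC genes were higher and 3 lower (17.5%, beside 8.95% of all genes), against 30.4% of rod and 23.5% of progenitor genes. The labels do not tie the replicate numbers to animals, litters or batches, so whether the numbers pair the samples is not known. The correlation of replicate 1 minus replicate 2 between hyperoxia groups ran from −0.29 to 0.22, and over all 8 groups from −0.29 to 0.51. For day 6 within the fit on 16 arrays the sign turned for Epo (−0.066, adjusted p = 0.857 in limma) and Angpt2 (0.036, adjusted p = 0.938). Neither was called over both days. Of the 74 called genes named by rule for the strain difference, from the lists or in any case, 35 lost the call in at least 1 fit with an array left out, most often without SD hyperoxia day 6 replicate 1 (32 genes). Background limits the folds of Mospd1, Pter, Tap2 and other genes dim in 1 strain to lower bounds of the signal difference. They are not bounds of the RNA difference, since probe match to each strain was not tested.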

Other observations

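Gene families outside the lists, chosen after their values were seen, were counted in the same way, where 9.4% of all genes were called. That share counts dim genes too. Without dim probe sets 1404 of 8826 were called, a larger share. Of 150 zinc finger genes named Zfp, 22 were higher and 4 lower in SD under hyperoxia (17.3%, median 0.06), and in room air 2 and 1, with a median of 0.06 there too, where 3.76% of all genes were called. Zfp672 led them, at 7.53, 7.62, 7.47 and 7.58 in SD and 6.84, 6.95, 7.03 and 6.75 in F344 (0.66 ± 0.09 SE, n = 4 arrays per strain, limma adjusted p = 0.000755). Of 74 cytosolic ribosomal protein genes, 1 was higher and 10 lower (median −0.11), and in room air 0 and 14. Rps15a, which has near-identical copies, had 6 probe sets, all called lower in SD, by −0.76 to −0.89. Of 33 complex I subunits of the respiratory chain 1 was higher and 5 lower, led by Ndufb3 (−0.76, adjusted p = 0.00288, and −0.12 in room air, adjusted p = 0.36). Of 83 potassium channel genes 5 were higher and 9 lower (16.9%), among them Kcnh6, which read 7.75, 7.85, 7.68 and 7.75 in SD and 8.38, 8.37, 8.33 and 8.39 in F344 (−0.61 ± 0.08, adjusted p = 0.000611). Of 25 glutamate receptor genes 1 was higher and 3 lower, and the metabotropic receptor Grm2 (−0.83, adjusted p = 0.000152) moved in the direction of Grm6. Of 1051 olfactory receptor genes, which the retina is not known for, 2 were called (0.19%).

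Called genes were spread over the chromosomes, from 7% of genes on chromosome 3 to 13.7% on chromosome 20. In the RefSeq gene order, 10.4% of the genes beside a called gene were called, against 9.4% of all genes, and of 140 neighbouring pairs with both genes called 85 had the same direction. Of 98 genes with more than 1 probe set and at least 1 called, 81 had the same sign in all of their sets, and of 40 with 2 or more called sets 39 had the same sign in the called ones.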
